A study of Rattus norvegicus with 16 samples.

Results

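The nuclear receptors of the liver are a family of transcription factors, and 37 of their genes are described here in rat liver RNA sequencing data. They were chosen by symbol, as a listed set of family members, and all 37 were found among the 22587 gene symbols of the deposited table. The 16 libraries come from flash-frozen livers of male rats, labelled strain Wistar-Wyoto and 13 weeks old, with 4 libraries in each of 4 groups. The groups are adrenalectomized rats (ADREX, adrenal glands removed) that breathed ozone at 0.8 ppm for 4 hours, ADREX rats in air, sham-operated rats (SHAM) in ozone and SHAM rats in air. All groups share the strain label, sex and age, every rat had 1 of these operations, and the labels name no transgene or drug. Groups follow the library titles, because the treatment field of the 4 ADREX libraries titled air reads ozone, as it does for the other 4. The series asks how adrenal stress hormones regulate liver genes after breathing ozone, a reactive air pollutant.

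Nuclear receptors bind DNA and switch genes on or off, in most cases when a small fat-soluble ligand such as a steroid, a bile acid, an oxysterol, a fatty acid or thyroid hormone fills their pocket. Many act as pairs with a retinoid X receptor, and others work as single molecules or as orphans with no agreed ligand. In hepatocytes they set bile acid, cholesterol, fatty acid, drug and glucose metabolism, and the adrenal hormone corticosterone acts there through the glucocorticoid receptor.

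Values are normalized counts, read counts divided by 1 size factor per library, and differences are on the scale log2(value + 1), tested with limma over all 12791 genes whose mean over the 16 libraries was at least 14.7. Of the 37 receptor genes, 35 passed this minimum. Vdr (vitamin D receptor, 0 to 16 reads per library) and Nr4a3 (1 to 17 reads) were low and were not tested. Vdr had 1.14 to 17.6 normalized counts in ADREX ozone, 2.98 to 16.9 in ADREX air, 0 to 3.02 in SHAM ozone and 1.49 to 3.75 in SHAM air. Whole reads numbered 8372891 to 14096246 per library, so that 3 reads, the upper limit for a gene with none, stood for 0.213 to 0.358 RPM, a gene's reads after all libraries are scaled to the same total. Hepatocyte markers were abundant in every library, and no marker of the 7 cell type lists was at 0 throughout. The 25 neuron and oligodendrocyte markers were also present: their summed level was 837 to 4824 RPM in ADREX ozone, 279 to 1222 in ADREX air, 80.2 to 2967 in SHAM ozone and 45.5 to 862.5 in SHAM air. Of these 25, 23 were tested and none passed in the 5 comparisons, although their median difference was 2.05 (log2) between ADREX ozone and SHAM ozone and 1.86 between ADREX air and SHAM air. The 3 highest libraries were ADREX ozone 82, SHAM ozone 18 and ADREX ozone 81, and receptor calls are also given without them. Both ozone groups are then smaller. Between ADREX ozone and SHAM ozone, 3.74% of all genes were called without them, beside 12.5% with all libraries. Why single calls were lost without them was not tested. Of the 35 calls among target and cofactor genes between ADREX ozone and SHAM ozone, 12 held without these libraries and 27 with the neural marker sum as a covariate. No gene changed sign, but these genes were picked by their calls. Of the 28 such calls in air, 15 held with the covariate. All 28 held without the 3 libraries, but none of these is an air library, so the differences in air could not change. In these bulk samples, fewer cells of a type and less RNA per cell cannot be told apart. The labels do not say that each library is a separate animal, so p-values measure the spread between these libraries. Levels of different genes were not compared with each other, since the table gives no gene lengths. The ratio of Thra to Thrb given below is read only from group to group.

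Receptor genes passed the limma test between ADREX and SHAM livers, under ozone and in air. Between ADREX ozone and SHAM ozone, 6 of 35 tested receptors passed (17.1%), where 12.5% of all tested genes were called. Nr1h3, the oxysterol receptor LXR alpha, was higher there, where 6.04% of all genes were called higher. Esr1 (estrogen receptor alpha), Nr2c2, Rora, Nr1i2 and Rarb were lower, where 6.48% were called lower. Between ADREX air and SHAM air, 2 of 35 passed (5.71%), where 3.53% of all genes were called. Both were lower (2.03% of all genes): Esr1 and Nr1h4, the bile acid receptor FXR. At an unadjusted p under 0.05 there were 12 receptors under ozone (34.3%, beside 31.2% of all genes) and 7 in air (20%, beside 20.2%). edgeR called 7 under ozone (12.4% of all genes) and 2 in air (2.96%), and DESeq2 called 7 (17.1% of all genes) and 5 (6.53%). Median changes of the 35 receptors were −0.17 (log2) for ADREX against SHAM under ozone and −0.12 in air, beside 0.11 and 0.04 over all tested genes.

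Ozone gave no adjusted call among the receptors in limma, either in ADREX livers (0.125% of all genes called) or in SHAM livers (1.58%). At an unadjusted p under 0.05, limma gave 7 receptors for ozone in ADREX (20%, beside 17.8% of all genes) and 6 for ozone in SHAM (17.1%, beside 18.4%). edgeR called 0 receptors in ADREX (0.383% of all genes) and 0 in SHAM (1.38%), and DESeq2 called 2 in ADREX (4.46% of all genes) and 3 in SHAM (4.19%). The difference between the ozone effects (ADREX minus SHAM) gave 0 adjusted calls (0.109% of all genes) and 7 at an unadjusted p under 0.05 (20%, beside 12.9%). For that difference edgeR called 0 (0.188% of all genes) and DESeq2 called 1, Nr2c2 (1.94% of all genes).

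Libraries of a group varied about as much for the receptors as for other genes: the median SD within groups was 0.405 (log2) over the 35 receptors and 0.366 over all tested genes. The steadiest receptor was Nr2c2, with an SD of 0.13 within groups and a highest library 2.02 times its lowest. The least steady was Nr0b2, which encodes SHP, a partner that represses other receptors, with an SD of 1.26 and levels of 83.4 to 2777 normalized counts.

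Promoter sequences of some receptors are shown next, from RefSeq on build GRCr8, which is not the build of the deposited table (rn6). Esr1 and Nr1h3 were picked for their differences, and Nr1i2, Rarb and Nr1d1 because they hold a motif. Windows of 300 bases, 250 before and 50 after each start, were found for 31 of the 37 genes. Lower case marks plain sequence and capitals mark a motif. The first set holds the 250 bases before the start of Esr1 and Nr1h3 and of Nr1i2, searched for AGAACA, the core that the glucocorticoid receptor can bind. The last lines show a direct repeat and an E-box with their flanks.
Esr1 promoter, chr1:43641845-43642094, plus strand: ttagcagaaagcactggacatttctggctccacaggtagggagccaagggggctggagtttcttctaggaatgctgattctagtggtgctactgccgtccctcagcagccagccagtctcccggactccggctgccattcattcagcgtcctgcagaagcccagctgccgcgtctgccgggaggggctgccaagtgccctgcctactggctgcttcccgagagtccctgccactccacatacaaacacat
Nr1h3 promoter, chr3:97623230-97623479, minus strand: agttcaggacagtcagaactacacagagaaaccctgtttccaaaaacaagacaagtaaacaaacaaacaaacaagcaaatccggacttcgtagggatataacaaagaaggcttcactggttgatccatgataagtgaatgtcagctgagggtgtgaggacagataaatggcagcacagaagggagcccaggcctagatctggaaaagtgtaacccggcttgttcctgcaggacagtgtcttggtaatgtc
Nr1i2 promoter, chr11:75965467-75965716, plus strand: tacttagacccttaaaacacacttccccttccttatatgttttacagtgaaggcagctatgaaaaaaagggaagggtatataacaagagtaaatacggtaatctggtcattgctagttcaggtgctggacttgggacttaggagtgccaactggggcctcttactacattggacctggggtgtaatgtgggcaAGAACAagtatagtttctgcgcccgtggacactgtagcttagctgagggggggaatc
Rarb site, chr15:11336411-11336438, plus strand: ggaaggGTTCACCGAAAGTTCActcgca
Nr1d1 site, chr10:84229615-84229670, minus strand: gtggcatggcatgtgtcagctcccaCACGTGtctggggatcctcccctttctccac

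On both strands, AGAACA was present in the 300-base window of 1 receptor, Nr1i2, and in 20.7% of all 33469 windows; the full element, AGAACA and TGTTCT with 3 bases of any kind between them, was in none of the receptor windows and in 0.0149% of all. GTTCA and AGTTCA with 5 bases of any kind between them is 1 form of the direct repeat through which retinoic acid receptors act. It was present in Rarb and in 0.0269% of all windows. This form follows the known element of Rarb, itself a retinoic acid target, so its match there was fixed in advance. The match lies 25 to 40 bases after the start and is the capital run GTTCACCGAAAGTTCA above. CACGTG, the E-box bound by CLOCK and BMAL1, was present in Nr0b2 and Nr1d1 and in 6.42% of all windows. AGGTCA, the core site of many nuclear receptors, was present in Nr1d2, Nr5a2 and Rarg and in 16.2% of all windows. A match is a run of letters and no evidence of binding, and the lack of one in Esr1 and Nr1h3 covers only these windows.

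Among the steroid hormone receptors, Esr1 had the largest difference. Esr1 had 145, 84.8, 84.5 and 288 normalized counts in ADREX ozone, 147, 162, 293 and 139 in ADREX air, 672, 324, 961 and 783 in SHAM ozone and 689, 928, 838 and 1467 in SHAM air. All 8 ADREX libraries were below all 8 SHAM libraries, the closest being ADREX air 67 at 293 and SHAM ozone 18 at 324. Esr1 was 4.80-fold lower in ADREX ozone than in SHAM ozone (log2 −2.26 ± 0.40, adjusted p = 0.00233) and 5.30-fold lower in ADREX air than in SHAM air (log2 −2.41 ± 0.40, adjusted p = 0.00337). Both calls passed in all 29 alternative settings. Without the 3 libraries rich in neural markers, the difference under ozone was log2 −2.34, adjusted p = 0.014. None of those 3 is an air library, so the difference in air stayed at log2 −2.41 (adjusted p = 0.00339). The ozone effects on Esr1 were −0.42 ± 0.40 in ADREX and −0.56 ± 0.40 in SHAM, and neither passed the test (adjusted p = 0.619 and 0.457).

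**Figure D1:**
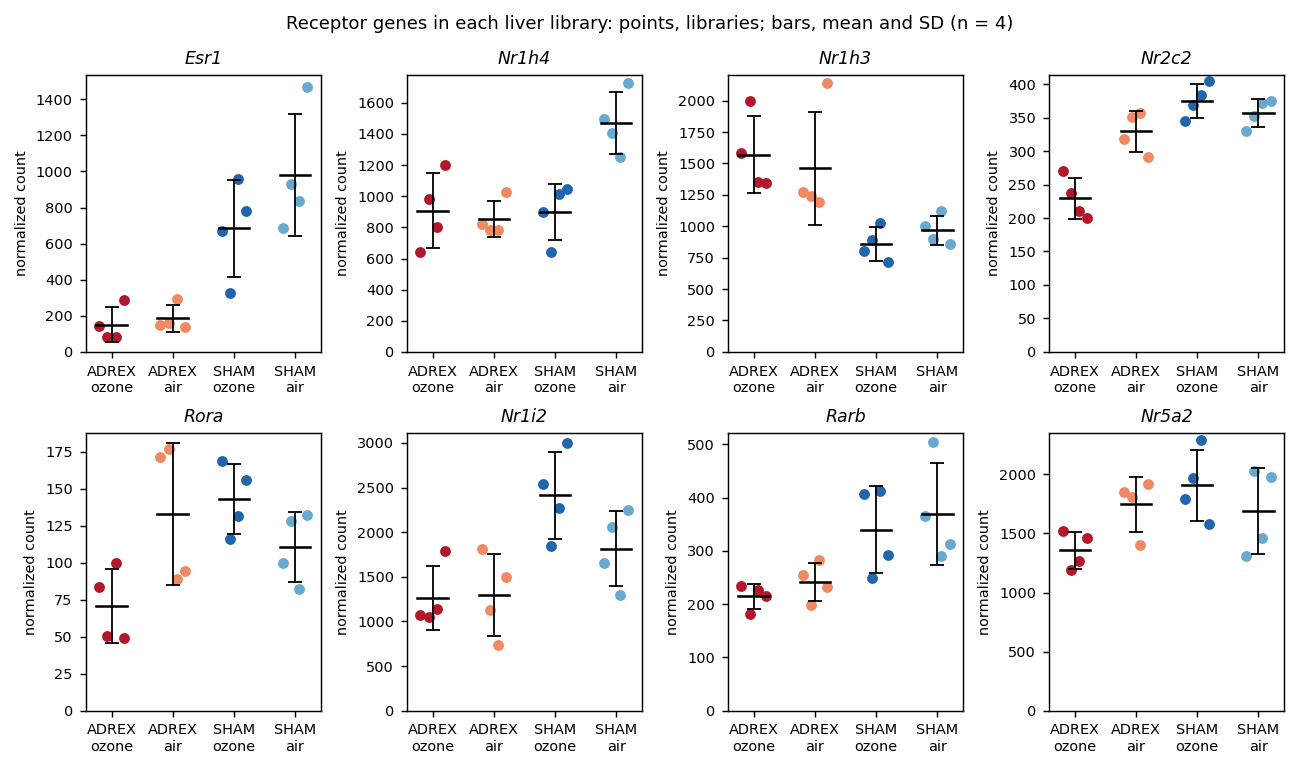
Normalized counts of 8 receptor genes in each library, by group; points are libraries and bars give the mean and SD (n = 4). Esr1 is at most 293 in ADREX libraries and at least 324 in SHAM libraries, Nr1h3 is at least 1191 in ADREX libraries and at most 1118 in SHAM libraries, and Nr1h4 is highest in SHAM air.

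Nr3c1 encodes the glucocorticoid receptor, the receptor of the hormone that adrenalectomy removes. Nr3c1 had 2557, 2567, 4231 and 2311 normalized counts in ADREX ozone, 3580.1, 4309, 2911 and 3502 in ADREX air, 2088, 2061, 2997 and 1731 in SHAM ozone and 3519, 3332, 3121 and 4846 in SHAM air. ADREX and SHAM libraries overlapped in both comparisons, and the differences were 0.38 ± 0.21 under ozone and −0.04 ± 0.21 in air (adjusted p = 0.236 and 0.928; 95% intervals −0.07 to 0.84 and −0.50 to 0.41). In SHAM livers the 4 ozone libraries were all below the 4 air libraries, one of 4 receptors without overlap in that comparison (11.4%, where 11.1% of all genes had none). That difference was −0.75 ± 0.21 and missed the limma test (adjusted p = 0.089). DESeq2 called it (adjusted p = 0.0359) and edgeR did not (0.121). In ADREX livers the ozone difference was −0.32 ± 0.21 (adjusted p = 0.46), and the difference between the ozone effects was 0.42 ± 0.30 (adjusted p = 0.56).

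Nr3c2, which encodes the mineralocorticoid receptor for aldosterone and corticosterone, was measured by few reads (21 to 89 per library). Nr3c2 had 64.0, 88.0, 50.5 and 80.6 normalized counts in ADREX ozone, 85.9, 83.7, 75.9 and 56.3 in ADREX air, 31.7, 61.2, 82.7 and 63.4 in SHAM ozone and 64.0, 107, 75.0 and 169 in SHAM air. The groups overlapped in every comparison, and no adjusted p was below 0.229, the value for ozone in SHAM. Esrra, which encodes an estrogen-related orphan receptor of mitochondrial metabolism, was 181 to 288 in ADREX ozone, 127 to 150 in ADREX air, 99.0 to 217 in SHAM ozone and 110 to 193 in SHAM air. Its ADREX ozone libraries were all above its ADREX air libraries, without an adjusted call (log2 0.64 ± 0.24, adjusted p = 0.192). In RefSeq on GRCr8 it overlaps Trmt112, and how strand entered the counting is not given in the sources used here, so their reads cannot be told apart. Trmt112 differed by 0.50 ± 0.15 between ADREX ozone and ADREX air (adjusted p = 0.14). Between ADREX ozone and SHAM ozone it differed by 0.75 ± 0.15 (adjusted p = 0.00455), where the Esrra libraries overlapped. For ozone in SHAM livers, Trmt112 differed by −0.10 ± 0.15 (adjusted p = 0.733).

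Target genes of the glucocorticoid receptor were read beside Nr3c1. For this list and the lists below, the shares of all genes called are the ones to compare. They were 12.5% between ADREX ozone and SHAM ozone and 3.53% between ADREX air and SHAM air. Of 15 listed targets tested, 1 was higher and 5 were lower in ADREX ozone than in SHAM ozone, and the median was −0.86 beside 0.11 over all genes. Fkbp5, a chaperone of the receptor, averaged 365 ± 137 normalized counts in ADREX ozone and 2104 ± 693 in SHAM ozone (log2 −2.56 ± 0.30, adjusted p = 0.000211). Tdo2, which breaks down tryptophan, averaged 13159.9 ± 4071 normalized counts in ADREX ozone and 50839 ± 7711 in SHAM ozone (log2 −1.99 ± 0.30, adjusted p = 0.000846). Zbtb16, Agt (angiotensinogen) and Dusp1, a phosphatase, were also lower (log2 −2.79 ± 0.61, adjusted p = 0.00793; log2 −1.01 ± 0.22, adjusted p = 0.00814; log2 −1.53 ± 0.44, adjusted p = 0.033). In air, no target was lower in ADREX, and Igfbp1, which binds insulin-like growth factors, and the kinase Sgk1 were higher (log2 2.16 ± 0.42, adjusted p = 0.00893; log2 2.59 ± 0.61, adjusted p = 0.0284); the median was −0.05. Igfbp1 was the 1 target higher under ozone as well (log2 1.58 ± 0.42, adjusted p = 0.0218), and it is also known as a gene that insulin represses. For ozone in SHAM livers, Fkbp5 and Agt were higher (log2 2.08 ± 0.30, adjusted p = 0.00287; log2 1.25 ± 0.22, adjusted p = 0.011), and for ozone in ADREX livers none of the 15 passed. Of the 6 calls between ADREX ozone and SHAM ozone, Fkbp5, Tdo2 and Zbtb16 held without the 3 neural-rich libraries and all 6 with the neural covariate. In air the Sgk1 call was lost with the covariate (log2 2.48, adjusted p = 0.0705) and the Igfbp1 call held.

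**Figure D2:**
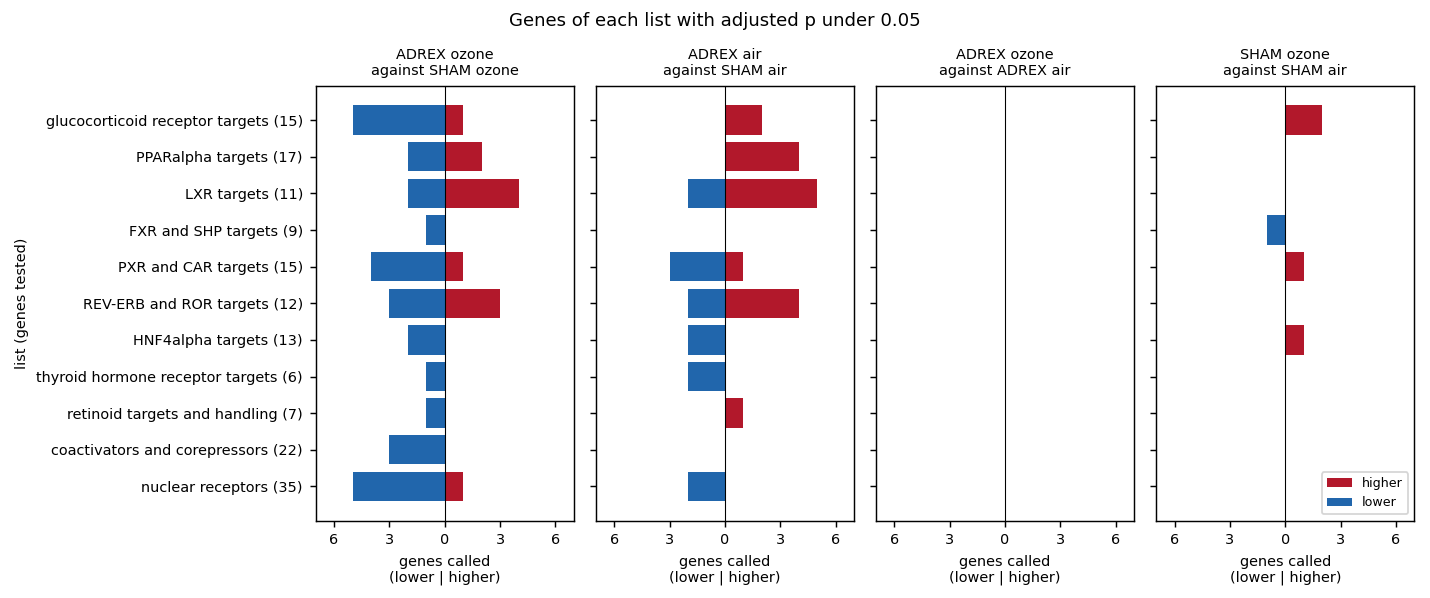
Number of genes with an adjusted p under 0.05 in each list, higher (red, to the right) and lower (blue, to the left), in 4 comparisons; the number of tested genes of each list is in brackets. Calls stand mostly in the comparisons of ADREX with SHAM, with 5 glucocorticoid receptor targets lower under ozone and 5 LXR targets higher in air. Ozone in ADREX livers has none. Of all tested genes, 12.5% were called for ADREX against SHAM under ozone and 3.53% in air. For ozone against air, 0.125% were called in ADREX and 1.58% in SHAM.

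Nr1h3 encodes LXR alpha, which senses oxysterols and switches on cholesterol export and fat synthesis. Nr1h3 had 1585, 1999.6, 1354 and 1344 normalized counts in ADREX ozone, 1273, 1244, 1191 and 2136 in ADREX air, 800.2, 894, 1025 and 712 in SHAM ozone and 1000.0, 898, 1118 and 861 in SHAM air. All 8 ADREX libraries were above all 8 SHAM libraries, the closest being ADREX air 67 at 1191 and SHAM air 3 at 1118. It was 1.82-fold higher in ADREX ozone than in SHAM ozone (log2 0.87 ± 0.19, adjusted p = 0.00952). In air the difference was 0.56 ± 0.19 and missed the limma test (adjusted p = 0.128), although the groups did not overlap; 5 of 35 receptors (14.3%) did not overlap there, where 9.26% of all genes did not. DESeq2 called it (adjusted p = 0.0477). The call under ozone passed in 28 of 29 alternatives; without the 3 libraries rich in neural markers it was not called (log2 0.69, adjusted p = 0.138). Nr1h3 overlaps Acp2 in RefSeq, and Acp2 differed by 0.01 under ozone (adjusted p = 0.982).

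Nr1h2, which encodes LXR beta, was 357 to 528 in ADREX ozone, 398 to 541 in ADREX air, 391 to 465 in SHAM ozone and 237 to 463 in SHAM air, and passed in no comparison. Of 11 LXR targets, 4 were higher and 2 lower in ADREX ozone than in SHAM ozone, and 5 were higher and 2 lower in ADREX air than in SHAM air. The medians were 0.06 and 0.45, beside 0.11 and 0.04 over all genes. Most of the higher genes encode sterol and lipid carriers. Abcg8, a subunit of the transporter that sends sterols into bile, averaged 588 ± 375 normalized counts in ADREX ozone and 61.9 ± 23.2 in SHAM ozone (log2 3.0 ± 0.47, adjusted p = 0.00112); in air it averaged 684 ± 362 normalized counts in ADREX air and 40.3 ± 12.7 in SHAM air (log2 3.98 ± 0.47, adjusted p = 0.000444). Its partner Abcg5 differed alike (log2 3.47 ± 0.41, adjusted p = 0.00024 under ozone; log2 3.19 ± 0.41, adjusted p = 0.000673 in air). Abcg1 and Pltp, which move cholesterol and phospholipid, were higher under ozone (log2 1.48 ± 0.25, adjusted p = 0.00158; log2 0.95 ± 0.22, adjusted p = 0.0102) and in air (log2 1.51 ± 0.25, adjusted p = 0.00337; log2 1.03 ± 0.22, adjusted p = 0.0151). Mylip, which marks the LDL receptor for destruction, was higher in air (log2 1.47 ± 0.35, adjusted p = 0.0288). The 2 lower genes, Scd1 and Fasn, make fatty acids and are also known to respond to insulin through SREBP-1c. Scd1 averaged 843 ± 455 normalized counts in ADREX ozone and 15522 ± 10134 in SHAM ozone (log2 −4.18 ± 0.64, adjusted p = 0.00101); Fasn averaged 430.3 ± 192 normalized counts in ADREX ozone and 2279 ± 746 in SHAM ozone (log2 −2.45 ± 0.43, adjusted p = 0.00237). In air both were lower too (log2 −4.57 ± 0.64, adjusted p = 0.00104; log2 −3.47 ± 0.43, adjusted p = 0.000558). Under ozone the calls of Abcg5, Abcg8, Abcg1, Scd1 and Fasn held without the 3 neural-rich libraries, and that of Pltp did not. All 6 held with the neural covariate. In air the calls of Mylip and Pltp were lost with the covariate (adjusted p = 0.0897 and 0.0565), and the other 5 held.

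Nr1h4 encodes FXR, the bile acid receptor that lowers bile acid synthesis. Nr1h4 had 640.4, 979, 805 and 1200.3 normalized counts in ADREX ozone, 821, 785, 785 and 1026 in ADREX air, 898, 642, 1012 and 1044 in SHAM ozone and 1497, 1404, 1251 and 1728 in SHAM air. The 4 SHAM air libraries were above every library of the other groups. Nr1h4 was 1.72-fold lower in ADREX air than in SHAM air (log2 −0.78 ± 0.20, adjusted p = 0.0382), while under ozone ADREX and SHAM livers had 906 ± 239.9 and 899 ± 182 normalized counts (SD, n = 4 each; log2 −0.00 ± 0.20, adjusted p = 0.996). The ozone effect was 0.06 ± 0.20 in ADREX and −0.72 ± 0.20 in SHAM (adjusted p = 0.919 and 0.0742), the second of which DESeq2 called (adjusted p = 0.0297). The difference between the ozone effects was 0.78 ± 0.28, with an unadjusted p of 0.0129 and an adjusted p of 0.269. The comparisons of ADREX air and of SHAM ozone share the same 4 SHAM air libraries. The call in air held in 21 of 29 alternatives: it was lost with the neural marker sum as a covariate (log2 −0.67, adjusted p = 0.125) and without any 1 of 7 libraries (ADREX air 65, 66 or 67, SHAM ozone 17, or SHAM air 1, 2 or 4), with adjusted p of 0.0529 to 0.124.

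Nr0b2 (SHP), which FXR switches on to repress bile acid synthesis, varied most of the tested receptors. Nr0b2 had 758, 441, 455 and 639 normalized counts in ADREX ozone, 2777, 651, 83.4 and 638 in ADREX air, 766, 177, 1049 and 889 in SHAM ozone and 1139.9, 844, 356 and 797 in SHAM air. The ADREX air libraries alone spanned 83.4 to 2777, and all groups overlapped, so that intervals were wide (−1.72 to 1.53 for ADREX against SHAM under ozone and −2.0 to 1.25 in air, log2). Of 9 FXR and SHP targets, 1 was lower in ADREX ozone than in SHAM ozone, where 6.48% of all genes were called lower, and none passed in air. It was the bile salt export pump Abcb11, which averaged 9466 ± 3222 normalized counts in ADREX ozone and 18505 ± 1793 in SHAM ozone (log2 −1.04 ± 0.23, adjusted p = 0.00931). The list medians were −0.24 under ozone and −0.30 in air, beside 0.11 and 0.04 over all genes. The Abcb11 call was lost without the 3 neural-rich libraries (log2 −0.74, adjusted p = 0.0686) and held with the covariate. Baat, which joins bile acids to amino acids, was lower in SHAM ozone than in SHAM air (log2 −0.83 ± 0.17, adjusted p = 0.0226), a call lost without the same libraries (log2 −0.80, adjusted p = 0.0792). Nr5a2, which encodes LRH-1, an activator of bile acid and cholesterol genes that SHP represses, was 1188 to 1518 in ADREX ozone, 1403 to 1922 in ADREX air, 1582 to 2292 in SHAM ozone and 1305 to 2030 in SHAM air. ADREX ozone libraries were all below SHAM ozone libraries, one of 7 receptors without overlap there (20%, where 20.5% of all genes had none). The difference missed the limma test (log2 −0.48 ± 0.17, adjusted p = 0.0736) and was called by edgeR (adjusted p = 0.0341) and DESeq2 (adjusted p = 0.013).

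Nr1i2 encodes PXR, a sensor of drugs and bile acids that induces cytochrome P450 genes; its promoter with the AGAACA run is printed above. Nr1i2 had 1073, 1053, 1135 and 1795 normalized counts in ADREX ozone, 1812, 1133, 742 and 1494 in ADREX air, 2539.6, 1841, 2273 and 2995 in SHAM ozone and 1659, 2061, 1300.0 and 2247 in SHAM air. Under ozone, 3 ADREX libraries lay between 1053 and 1135 and the highest, ADREX ozone 84 at 1795, was still below the lowest SHAM library at 1841. Nr1i2 was 1.93-fold lower in ADREX ozone than in SHAM ozone (log2 −0.95 ± 0.26, adjusted p = 0.0281), and in air the groups overlapped (log2 −0.53 ± 0.26, adjusted p = 0.266). The call held in 21 of 29 alternatives. It was lost with the neural covariate (log2 −0.76, adjusted p = 0.0912), without the 3 neural-rich libraries (log2 −0.86, adjusted p = 0.179), and without any 1 of ADREX ozone 81, 82 or 83 or SHAM ozone 17, 19 or 20 (adjusted p = 0.052 to 0.0923). Nr1i2 overlaps Gsk3b in RefSeq, and Gsk3b was lower in the same comparison (log2 −0.66, adjusted p = 0.0305), so reads of the pair cannot be told apart without strand.

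Nr1i3 encodes CAR, which works beside PXR in drug metabolism. Nr1i3 had 487, 525, 294 and 941 normalized counts in ADREX ozone, 623, 396, 214 and 741 in ADREX air, 414, 382, 505 and 462 in SHAM ozone and 734, 584, 618 and 756 in SHAM air. ADREX libraries spread widely and overlapped SHAM libraries in both comparisons (log2 0.24 ± 0.34, adjusted p = 0.676 under ozone; log2 −0.59 ± 0.34, adjusted p = 0.337 in air). SHAM ozone libraries were all below SHAM air libraries, without an adjusted call (log2 −0.61 ± 0.34, adjusted p = 0.35). Of 15 PXR and CAR targets, 1 was higher and 4 lower in ADREX ozone than in SHAM ozone, and 1 was higher and 3 lower in ADREX air than in SHAM air, with medians of −0.12 and −0.21. Of all genes, 12.5% and 3.53% were called there, with medians of 0.11 and 0.04. Abcc2, an exporter of drug conjugates into bile, was lower in both (log2 −1.32 ± 0.31, adjusted p = 0.0118 under ozone; log2 −1.69 ± 0.31, adjusted p = 0.00667 in air). Cyp3a2, a drug hydroxylase, averaged 20166 ± 1729 normalized counts in ADREX ozone and 6059 ± 1416 in SHAM ozone (log2 1.76 ± 0.38, adjusted p = 0.00824). Cyp3a9 and Cyp2b2 were lower under ozone (log2 −1.51 ± 0.41, adjusted p = 0.026; log2 −1.37 ± 0.38, adjusted p = 0.0289), and Cyp2c11 and Cyp2b3 were lower in air (log2 −1.62 ± 0.38, adjusted p = 0.0281; log2 −1.20 ± 0.29, adjusted p = 0.0285). These genes have close relatives whose reads the counting could have split. Por, the electron donor of the P450 enzymes, was lower in ADREX than in SHAM under ozone (log2 −1.01 ± 0.27, adjusted p = 0.0244) and higher in air (log2 1.15 ± 0.27, adjusted p = 0.0285). It had 2559 ± 449.7 normalized counts in ADREX ozone, 2567 ± 796 in ADREX air, 5322 ± 1572 in SHAM ozone and 1162 ± 382 in SHAM air (mean ± SD, n = 4 each). Por was higher in SHAM ozone than in SHAM air (log2 2.19 ± 0.27, adjusted p = 0.00116), its difference between the ozone effects passed the test (log2 −2.17 ± 0.39, adjusted p = 0.0401), and no other gene of the target lists did. Without the 3 neural-rich libraries that difference was log2 −2.01, adjusted p = 0.118, and none of the 5 calls of the list between ADREX ozone and SHAM ozone held. With the neural covariate Abcc2, Cyp3a2 and Cyp3a9 held. In air Abcc2 and Por held with the covariate, and Cyp2c11 and Cyp2b3 did not (adjusted p = 0.0788 and 0.0879).

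No fatty acid receptor or retinoid X partner passed the test in any of the 5 comparisons. Ppara encodes the fatty acid sensor that turns on fat burning in fasting. Ppara had 684, 369, 410.3 and 959 normalized counts in ADREX ozone, 1014, 1416, 329 and 866 in ADREX air, 806, 659, 735 and 578 in SHAM ozone and 634, 1384, 524 and 969 in SHAM air. Groups overlapped throughout, and the ADREX differences were −0.30 ± 0.40 under ozone and −0.03 ± 0.40 in air, with 95% intervals of −1.15 to 0.56 and −0.88 to 0.82. Rxra encodes the main retinoid X partner in liver. Rxra had 1332, 692, 1203 and 1962 normalized counts in ADREX ozone, 1273, 1189, 1662 and 1327 in ADREX air, 1937, 1317, 1416 and 1882 in SHAM ozone and 1635, 2725, 1523 and 2135 in SHAM air. Its ADREX differences were −0.41 ± 0.26 under ozone and −0.53 ± 0.26 in air (adjusted p = 0.298 and 0.269). The other 4 genes were Ppard (37.4 to 134 normalized counts over the 16 libraries), Pparg (10.9 to 77.3), Rxrb (133 to 304) and Rxrg (109 to 259). The lowest adjusted p over the 6 genes and 5 comparisons was 0.129, for Rxrb between ADREX ozone and SHAM ozone.

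Of 17 PPAR alpha targets, 4 were higher and none lower in ADREX air than in SHAM air, with a median of 0.69 beside 0.04 over all genes. Among them were Cyp4a1 and Ehhadh, which act on fatty acids, and Vnn1, an enzyme that recycles pantothenate. Ehhadh averaged 21165 ± 10125 normalized counts in ADREX air and 6431 ± 1351 in SHAM air (log2 1.59 ± 0.36, adjusted p = 0.0204), and Cyp4a1 was higher too (log2 1.28 ± 0.29, adjusted p = 0.02). Under ozone 2 targets were higher in ADREX than in SHAM, Vnn1 and Cyp4a2 (log2 1.79 ± 0.39, adjusted p = 0.00783; log2 0.76 ± 0.24, adjusted p = 0.0484), and 2 were lower, the lipid droplet coat Plin2 and the carnitine transferase Cpt2 (log2 −1.83 ± 0.36, adjusted p = 0.00487; log2 −0.79 ± 0.23, adjusted p = 0.0326); the median was 0.24. In air Vnn1 was also higher (log2 2.04 ± 0.39, adjusted p = 0.00795). None of the 4 calls under ozone held without the 3 neural-rich libraries. The differences there were log2 1.69 for Vnn1, 0.74 for Cyp4a2, −1.66 for Plin2 and −0.67 for Cpt2. Plin2 and Vnn1 held with the neural covariate, and in air 2 of the 4 held with it. None of the 17 passed for ozone in ADREX or in SHAM livers.

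Thra and Thrb encode the thyroid hormone receptors, of which the beta form is known as the main one in liver. Thra had 400.3, 518, 312 and 263 normalized counts in ADREX ozone, 233, 238, 177 and 269 in ADREX air, 316, 411, 359 and 361 in SHAM ozone and 169.6, 169, 344 and 187 in SHAM air. Thrb had 825, 715, 664 and 1006 normalized counts in ADREX ozone, 1222, 1579, 1028 and 1065 in ADREX air, 886, 1132, 1050.2 and 726 in SHAM ozone and 1726, 1590.3, 1596 and 1252 in SHAM air. In ADREX livers Thrb was lower in all 4 ozone libraries than in all 4 air libraries, one of 3 receptors without overlap there (8.57%, where 9.97% of all genes had none), and the same held in SHAM livers. Ozone over air was 0.67 ± 0.24 for Thra and −0.60 ± 0.18 for Thrb in ADREX livers (adjusted p = 0.186 and 0.149), and 0.79 ± 0.24 and −0.71 ± 0.18 in SHAM livers (adjusted p = 0.103 and 0.0634). DESeq2 called Thrb in both (adjusted p = 0.0226 in ADREX and 0.0129 in SHAM). A comparison of ozone with air averaged over ADREX and SHAM, added after the data were seen, called 2 of 35 receptors (5.71%, where 2.13% of all genes were called): Thra higher (log2 0.73 ± 0.17, adjusted p = 0.0409) and Thrb lower (log2 −0.66 ± 0.13, adjusted p = 0.0252). The Thra call held in 14 of 28 alternatives and was lost without any 1 of 12 libraries, with a highest adjusted p of 0.262. The Thrb call held in 22 of 28 and was lost without any 1 of 4 libraries (ADREX ozone 82, ADREX air 66, SHAM ozone 17 or SHAM air 2), with a highest adjusted p of 0.132. The log2 ratio of Thra to Thrb was −1.93 to −0.46 in the 8 ozone libraries and −3.35 to −1.99 in the 8 air libraries; its group means were −1.13 ± 0.60 in ADREX ozone, −2.41 ± 0.32 in ADREX air, −1.38 ± 0.25 in SHAM ozone and −2.89 ± 0.52 in SHAM air (SD, n = 4 each).

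The ratio was chosen after its values were seen and carries no test. The neural markers moved with ozone too, with a median difference over the 23 tested of 1.92 (log2) in the averaged comparison, where 1 of them, Camk2a, was called higher. Without the 3 libraries richest in them, the averaged ozone differences were log2 0.53, adjusted p = 0.262 for Thra and log2 −0.68, adjusted p = 0.132 for Thrb, and with the marker sum as a covariate they were log2 0.44, adjusted p = 0.159 and log2 −0.72, adjusted p = 0.0564. Thra overlaps Nr1d1 and Med24 in RefSeq, and reads in the shared parts cannot be told apart without strand. For ozone, Med24 differed by −0.04 ± 0.14 in ADREX livers and −0.31 ± 0.14 in SHAM livers (adjusted p = 0.924 and 0.249). The same limit holds for Nr1i3, Rxrb and Ppara, which overlap Tomm40l, Slc39a7 and Cdpf1 in that order. Of 6 thyroid hormone receptor targets, Thrsp, a regulator of fat synthesis, was lower in ADREX than in SHAM under ozone and in air (log2 −3.08 ± 0.62, adjusted p = 0.00575; log2 −3.97 ± 0.62, adjusted p = 0.00277), G0s2, which holds back lipolysis, was lower in air (log2 −2.54 ± 0.61, adjusted p = 0.0301), and none passed for ozone in either group of rats. The Thrsp call under ozone was lost without the 3 neural-rich libraries (log2 −3.31, adjusted p = 0.05). In air Thrsp held with the neural covariate and G0s2 did not (log2 −2.26, adjusted p = 0.088). Medians over the 6 targets for ADREX against SHAM were −0.52 under ozone and −0.58 in air, beside 0.11 and 0.04 over all genes.

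**Figure D3:**
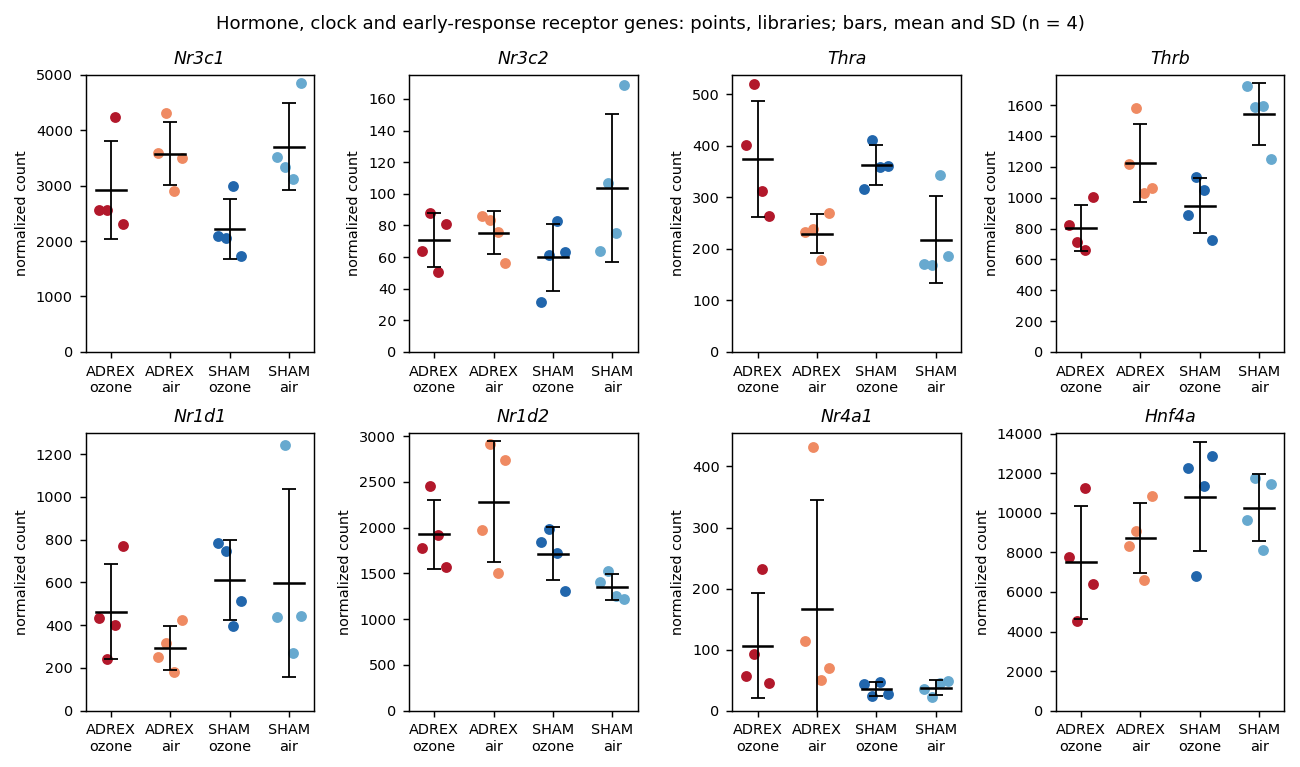
Normalized counts of 8 receptor genes that bind hormones, belong to the clock or respond early, in each library, by group; points are libraries and bars give the mean and SD (n = 4). Thrb is lower in ozone than in air libraries within ADREX and within SHAM, Nr3c1 is lowest in SHAM ozone on average, and Nr4a1 is higher in ADREX with a wide spread.

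Rarb encodes a retinoic acid receptor, and its retinoid repeat is printed above. Rarb had 233, 181, 227 and 216 normalized counts in ADREX ozone, 255, 198, 283 and 232 in ADREX air, 406, 249.6, 412 and 292 in SHAM ozone and 366, 504, 291 and 313 in SHAM air. ADREX libraries were all below SHAM libraries under ozone and in air, the closest being ADREX ozone 81 at 233 against SHAM ozone 18 at 249.6, and ADREX air 67 at 283 against SHAM air 3 at 291. Rarb was 1.55-fold lower in ADREX ozone than in SHAM ozone (log2 −0.64 ± 0.20, adjusted p = 0.0492) and differed by −0.58 ± 0.20 in air, without a call (adjusted p = 0.127). The call under ozone lay just under the threshold and held in 13 of 29 alternatives, with a highest adjusted p of 0.164; it was lost without any 1 of 12 libraries, and without the 3 neural-rich libraries (log2 −0.72, adjusted p = 0.127). Rara (199 to 578 normalized counts) and Rarg (31.8 to 69.9) passed in no comparison. Of 7 retinoid genes, the retinoic acid hydroxylase Cyp26a1 was higher in ADREX air than in SHAM air (log2 2.26 ± 0.33, adjusted p = 0.00135). Its relative Cyp26b1 was lower in ADREX ozone than in SHAM ozone (log2 −1.41 ± 0.38, adjusted p = 0.0244). Without the 3 neural-rich libraries the Cyp26b1 call was lost (log2 −1.52, adjusted p = 0.117). Medians over the 7 were 0.48 under ozone and 0.07 in air, beside 0.11 and 0.04 over all genes.

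Clock receptors compete for the same DNA sites, where the REV-ERB proteins of Nr1d1 and Nr1d2 repress and the ROR protein of Rora activates, Arntl (BMAL1) being a known target. Rora had 83.5, 50.3, 99.8 and 48.9 normalized counts in ADREX ozone, 172, 177, 89.4 and 94.2 in ADREX air, 169, 116, 132 and 156 in SHAM ozone and 99.7, 129, 82.5 and 132 in SHAM air. The 4 ADREX ozone libraries lay between 48.9 and 99.8, and the 4 SHAM ozone libraries between 116 and 169. Rora was 2.09-fold lower in ADREX ozone than in SHAM ozone (log2 −1.06 ± 0.28, adjusted p = 0.0232), and 0.22 ± 0.28 in air (adjusted p = 0.685). The ozone effects were −0.90 ± 0.28 in ADREX and 0.38 ± 0.28 in SHAM, and their difference was −1.28 ± 0.40 (unadjusted p = 0.0056, adjusted p = 0.207). The call held in 23 of 29 alternatives and was lost with the neural covariate (log2 −0.83, adjusted p = 0.081), without the 3 neural-rich libraries (log2 −1.10, adjusted p = 0.114), and without any 1 of ADREX ozone 82 or 84 or SHAM ozone 17 or 20 (adjusted p = 0.0562 to 0.0732).

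Nr1d2 and Nr1d1 encode REV-ERB beta and REV-ERB alpha, the repressors at these sites. Nr1d2 had 1777, 2452, 1922 and 1567 normalized counts in ADREX ozone, 1975, 2917, 1499.6 and 2736 in ADREX air, 1841, 1984, 1723 and 1311 in SHAM ozone and 1406, 1528, 1256 and 1218 in SHAM air. ADREX air libraries overlapped SHAM air libraries only at 1499.6 against 1528, and the difference missed the limma test (log2 0.71 ± 0.21, adjusted p = 0.0689); DESeq2 called it (adjusted p = 0.0115). Nr1d1 had 436, 243, 402 and 770.0 normalized counts in ADREX ozone, 250.7, 317, 182 and 423 in ADREX air, 785, 749, 397 and 513 in SHAM ozone and 436, 1243, 269 and 441 in SHAM air. A single SHAM air library, number 2, held 1243, and the groups overlapped in all comparisons (log2 −0.47 ± 0.42, adjusted p = 0.471 for ADREX against SHAM under ozone; log2 −0.85 ± 0.42, adjusted p = 0.266 in air). Averaged over ozone and air, a comparison added after the data were seen, ADREX against SHAM called 7 of 35 receptors (20%, where 18.6% of all genes were called). Nr1h3, Nr4a1 and Nr1d2 were higher and Esr1, Nr2c2, Rarb and Nr1i2 were lower. In that comparison 3 of the 23 tested neural markers were called higher, Eno2, Thy1 and Stmn2, with a median of 2.01 (log2) over the list. For Nr1d2 (log2 0.44 ± 0.15, adjusted p = 0.0464) the call held in 9 of 28 alternatives.

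Of 12 clock genes listed as REV-ERB and ROR targets, 3 were higher and 3 lower in ADREX ozone than in SHAM ozone, and 4 were higher and 2 lower in ADREX air than in SHAM air. The lower genes belong to the BMAL1 side of the clock. Arntl averaged 135 ± 36.9 normalized counts in ADREX ozone and 505 ± 145 in SHAM ozone (log2 −1.89 ± 0.44, adjusted p = 0.0125), and was lower in air too (log2 −1.97 ± 0.44, adjusted p = 0.0215). Its partner genes Npas2 and Clock were lower under ozone (log2 −2.25 ± 0.46, adjusted p = 0.00575; log2 −0.96 ± 0.16, adjusted p = 0.0019), and Npas2 in air (log2 −3.27 ± 0.46, adjusted p = 0.00104). The higher genes are ones that BMAL1 and its partners switch on. Dbp averaged 741 ± 91.6 normalized counts in ADREX ozone and 171 ± 152 in SHAM ozone (log2 2.44 ± 0.65, adjusted p = 0.0233), and Tef and Per3 were higher as well (log2 1.23 ± 0.27, adjusted p = 0.00816; log2 2.21 ± 0.60, adjusted p = 0.0244). In air Per2, Per3, Dbp and Tef were higher (log2 2.77 ± 0.65, adjusted p = 0.027; log2 3.10 ± 0.60, adjusted p = 0.00895; log2 2.64 ± 0.65, adjusted p = 0.0339; log2 1.13 ± 0.27, adjusted p = 0.0286). Under ozone, Npas2 and Clock held without the 3 neural-rich libraries and the other 4 did not, while with the neural covariate Arntl, Clock, Npas2 and Tef held. In air 2 of the 6 held with the covariate, Npas2 and Per3. The labels give no hour of tissue collection.

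NR4A receptors are immediate early genes, switched on quickly by stress hormones and cAMP. Nr4a1 had 56.0, 92.2, 231 and 46.1 normalized counts in ADREX ozone, 114, 432, 50.6 and 69.7 in ADREX air, 43.8, 23.2, 46.8 and 28.0 in SHAM ozone and 35.7, 21.6, 45.0 and 48.2 in SHAM air. In air all ADREX libraries were above all SHAM libraries, with ADREX air 66 at 432 far above the rest, and under ozone they overlapped at 46.1 in ADREX and 46.8 in SHAM. Neither comparison passed the limma test (log2 1.32 ± 0.58, adjusted p = 0.134 under ozone; log2 1.65 ± 0.58, adjusted p = 0.128 in air). DESeq2 called the difference in air (adjusted p = 0.0126). Averaged over ozone and air, Nr4a1 was higher in ADREX than in SHAM (log2 1.48 ± 0.41, adjusted p = 0.0204), with log2 1.52, adjusted p = 0.0726 without the 3 neural-rich libraries and log2 1.56, adjusted p = 0.0573 with the neural covariate. Nr4a2 was measured by 3 to 52 reads and passed in no comparison. Nr4a3, below the minimum for testing, had 10.1 to 17.6 normalized counts in ADREX ozone, 8.56 to 20.01 in ADREX air, 1.47 to 16.6 in SHAM ozone and 2.01 to 9.61 in SHAM air.

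Hnf4a encodes HNF4 alpha, a receptor that keeps hepatocyte genes on. Hnf4a had 7781, 4508, 11261 and 6420.4 normalized counts in ADREX ozone, 8344, 9073, 6593 and 10842 in ADREX air, 12260.2, 6809, 11329 and 12862 in SHAM ozone and 9646, 11757, 8119 and 11442 in SHAM air. The ADREX and SHAM libraries overlapped (log2 −0.57 ± 0.26, adjusted p = 0.156 under ozone; log2 −0.24 ± 0.26, adjusted p = 0.62 in air), with 95% intervals of −1.12 to −0.01 and −0.80 to 0.32. Of 13 HNF4 alpha targets, 2 were lower in ADREX ozone than in SHAM ozone (6.48% of all genes) and 2 in air (2.03%). The list medians were −0.31 and −0.35, beside 0.11 and 0.04 over all genes. Under ozone they were the P450 gene Cyp2d4 (log2 −1.44 ± 0.28, adjusted p = 0.00471) and the pyruvate kinase Pklr (log2 −1.56 ± 0.40, adjusted p = 0.0187). In air they were Pklr (log2 −2.15 ± 0.40, adjusted p = 0.00725) and the apolipoprotein Apoa4 (log2 −1.50 ± 0.33, adjusted p = 0.0197). Pklr is also known as a gene that glucose induces. Neither call under ozone held without the 3 neural-rich libraries, and Cyp2d4 held with the neural covariate. In air Pklr held with the covariate and Apoa4 did not (log2 −1.18, adjusted p = 0.0637).

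Nr2c2, which encodes the orphan receptor TR4, changed with the smallest spread. Nr2c2 had 269.9, 237, 211 and 200.1 normalized counts in ADREX ozone, 318, 352, 357 and 291 in ADREX air, 344, 368, 383 and 404 in SHAM ozone and 330.4, 352, 373 and 375 in SHAM air. The 4 ADREX ozone libraries, at most 269.9, were below all other 12, of which the lowest had 291. Nr2c2 was 1.64-fold lower in ADREX ozone than in SHAM ozone (log2 −0.71 ± 0.13, adjusted p = 0.00336), in all 29 alternatives, and log2 −0.87, adjusted p = 0.0137 without the 3 neural-rich libraries. In air ADREX and SHAM differed by −0.12 ± 0.13 (adjusted p = 0.621). Ozone over air was −0.53 ± 0.13 in ADREX livers (adjusted p = 0.0985 in limma and 0.00532 in DESeq2) and 0.07 ± 0.13 in SHAM livers (adjusted p = 0.811); the difference between these effects was −0.59 ± 0.19 with an adjusted p of 0.211 in limma and 0.0419 in DESeq2. Its relative Nr2c1 (TR2) was 161 to 220 in ADREX ozone, 156 to 189 in ADREX air, 198 to 261 in SHAM ozone and 167 to 208 in SHAM air, without an adjusted call. The other 5 genes of this group passed in no comparison; over the 16 libraries Hnf4g had 37.3 to 275 normalized counts, Nr2f1 had 23.8 to 86.9, Nr2f2 had 112 to 389, Nr2f6 had 476 to 1367 and Nr6a1 had 11.01 to 34.9.

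Coactivators and corepressors, the proteins that receptors recruit to chromatin, had 22 tested genes. Of these, 3 were lower and none higher in ADREX ozone than in SHAM ozone, where 6.48% of all genes were called lower. The median there was −0.44 beside 0.11 over all genes, and no cofactor passed in the other 4 comparisons by limma. Among the 3 were the corepressor Lcor (log2 −0.89 ± 0.20, adjusted p = 0.00869) and the coactivator Ppargc1b (log2 −1.57 ± 0.45, adjusted p = 0.0331). Lcor held without the 3 neural-rich libraries and with the neural covariate, and Ppargc1b with neither (log2 −1.66, adjusted p = 0.0935 without the libraries). Single markers of cell types passed in the same comparison. The Kupffer cell gene Clec4f, 1 of 7 tested in its list, was higher (log2 0.78 ± 0.21, adjusted p = 0.0255). So was the lymphocyte gene Nkg7, 1 of 2 tested (log2 1.0 ± 0.30, adjusted p = 0.037). The hepatocyte gene Cps1, 1 of 6 tested, was lower (log2 −1.09 ± 0.23, adjusted p = 0.00691). The medians of these lists were 0.11, 1.26 and −0.22 in that order, beside 0.11 over all genes. Apoa1, another gene of hepatocytes, was higher (log2 1.41 ± 0.35, adjusted p = 0.0157), and Epcam, a bile duct gene, was higher in ADREX air (log2 1.10 ± 0.18, adjusted p = 0.00358). Summed Kupffer markers were 493 to 1074 RPM in ADREX ozone, 479.8 to 1032 in ADREX air, 432 to 635 in SHAM ozone and 389.7 to 533 in SHAM air. In the same order, sinusoidal endothelial markers were 253 to 406, 295 to 638, 242 to 417 and 437 to 476 RPM. Stellate cell markers were 223 to 322, 279 to 549, 260 to 448 and 428 to 487 RPM. No single endothelial or stellate marker passed in the 5 comparisons. The part of these cells in the receptor results was not tested. Further family members that are known mainly outside the liver or at low levels in it were listed for comparison: 11 of 12 were in the table, 3 were tested and none passed in the 5 comparisons.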

How the data were processed

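Liver mRNA of 16 libraries, 4 in each of 4 groups mapped by title, was sequenced on a NextSeq 500, per the labels' protocols. The authors deposited 1 table of normalized counts, a signal per gene and library. The submitters' processing notes name Partek, DESeq2 and the build rn6; no aligner, counter, annotation or version was given in the sources used here. Each deposited signal was found to equal whole reads divided by 1 size factor per library: 100% of values came out whole within 0.01 of a read. Libraries held 8372891 to 14096246 reads, which limits low genes most; limits for a count of 0 cover counting error only. Of 22587 genes, 2206 had no read.

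Values were tested as log2(value + 1) with limma 3.58.1 in R 4.3.3, in 1 model of 4 group means with a trend (12 residual and 4.4 prior degrees of freedom), two-sided, with Benjamini-Hochberg adjustment over 12791 genes with a mean of at least 14.7. The threshold was an adjusted p of 0.05. There were 5 comparisons, and 2 averaged ones were added after the data were seen. Fold changes on this scale understate the change of low genes. edgeR 4.0.16 (quasi-likelihood) and DESeq2 1.42.0 ran on the recovered reads as alternatives. Other alternatives were scaling, pseudocounts of 0.5 and 10, filters, array quality weights, the 2 groups of a comparison alone, the neural marker sum as a covariate, and libraries left out. Scripts were tested on simulated data.

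The receptors, the target lists and the marker lists were chosen with earlier results of these data known. Values in every library are given for receptors that passed in at least 1 of the 5 comparisons and for Nr3c1, Nr3c2, Nr1d1, Nr1d2, Ppara, Rxra, Nr1h3, Nr1h4, Nr0b2, Nr1i2, Nr1i3, Hnf4a and Nr4a1; Thra, Thrb and other receptors outside this rule were chosen after their values were seen. From other lists, genes that passed were named, up to 6 for a list and comparison, by smallest adjusted p. A few genes of these lists that passed are counted but not reported by name here.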

Additional observations from a re-analysis of the deposited data

Results flagged for a closer look

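In 8 of 140 receptor and group combinations, 1 library lay far from the other 3 of its group, and chance alone flags about 1 in 20. Nr1h3 was 2136 normalized counts in ADREX air 68, with the nearest library at 1273. Nr1h4 in the same library was 1026, with the nearest at 821.5. Nr1i2 was 1795 in ADREX ozone 84, where the nearest had 1135. Nr3c1 was 4231 in ADREX ozone 83, where the nearest had 2567. Esr1 was 293.4 in ADREX air 67, where the nearest had 162. Nr4a1 was 432.1 in ADREX air 66, where the nearest had 114.2. Nr2f6, which encodes an orphan receptor, was 1367 in SHAM ozone 19, where the nearest had 878.3. Thra was 343.8 in SHAM air 3, where the nearest had 186.6.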

How the results depend on the processing

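The 22 receptor changes followed were picked for a low unadjusted p in the 5 comparisons, or for an adjusted call found only in the averaged ones. Changes picked so are unlikely to reverse. All kept their sign in 13 alternatives and with each of the 16 libraries left out. Calls of Esr1 in both ADREX comparisons and of Nr2c2 under ozone passed in all 29. Leaving out a library of a group outside a comparison cannot change its difference, only the shared spread and the adjustment. Counts of receptors called moved as follows, and the cause was not tested. The share of all tested genes called under the same setting is in brackets. With array quality weights they were 2 for ozone in ADREX (2.58%), 4 for ozone in SHAM (8.86%), 5 for ADREX against SHAM in air (11.4%) and 5 for ozone averaged (14.5%). With DESeq2 they were 2 (4.46%), 3 (4.19%) and 5 (6.53%) for the first 3 of these and 1 for the difference of the ozone effects (1.94%). With the neural covariate they were 3 for ADREX against SHAM under ozone (8.42%), 1 in air (1.54%), 3 for ADREX averaged (7.24%) and 0 for ozone averaged (0.297%). Without the 3 libraries highest in neural markers they were 2 under ozone (3.74%), 4 for ADREX averaged (9.25%) and 0 for ozone averaged (0.0235%). Leaving out 1 library gave 0 for ozone in ADREX (0% to 0.391%) and for the difference (0.0235% to 0.258%), 0 to 2 for ozone in SHAM (0.297% to 5.14%), 1 to 3 for ADREX against SHAM in air (1.52% to 7.85%), 3 to 6 under ozone (6.15% to 14.4%), 0 to 3 for ozone averaged (0.328% to 9.4%) and 6 to 9 for ADREX averaged (12.2% to 25.7%). The count under ozone was 3 without ADREX ozone 82, SHAM ozone 17 or SHAM ozone 20. In air it was 1 without ADREX air 65 or 66, SHAM ozone 17, or SHAM air 1, 2 or 4. For ozone in SHAM it was 2 without ADREX ozone 84 or SHAM air 3 and 1 without SHAM ozone 19. Ozone averaged had 0 without ADREX ozone 82, ADREX air 66, SHAM ozone 17 or SHAM air 2. No paired analysis was possible because the library numbers of the groups do not match. The fit on 2 groups alone was not run for the difference and the averaged comparisons. Vdr and Nr4a3 were left out of the tests because their mean levels were below the minimum for testing. The target genes without the 3 libraries and with the covariate were computed after the data were seen.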
